A study of Mus musculus with 20 samples.

Results

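TRAV16N, TRAV17, TRAV18 and TRAV19 are V genes of the mouse TCRα chain. They were chosen as the genes named TRAV16 to TRAV19, with or without a D or N suffix and without a shared TRDV name, that stood first in the list of V genes of an in-frame TCRα clone. A clone is a rearranged chain with its own CDR3, the loop where V and J genes are joined, and it counted as in frame when its translated CDR3 held neither a frameshift nor a stop codon. The rule found 4 of the 107 V genes used by in-frame clones. They carried 13147 of 212832 in-frame clones. Counting each combination of V gene, J gene and CDR3 amino acid sequence once per mouse as a clonotype, they carried 11818 of 197526 clonotypes. TRAV16N gave 6377 of these, TRAV19 gave 2785, TRAV17 gave 2639 and TRAV18 gave 17. No clone listed TRAV16 itself.

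The clones came from CD8 T cells of 17 male mice, 9 to 12 weeks old, sorted to more than 98% purity. The protocol names lymph nodes and spleens as the source, and the sample labels name lymph nodes. WT mice (n = 4) carry the catalytic proteasome subunits β5i and β5t. Cells with β5i include medullary thymic epithelial cells, dendritic cells and B cells, and β5t is specific to cortical thymic epithelial cells. β5i-KO mice (n = 5) lack β5i in all cells, and β5t-KO mice (n = 4) lack β5t. BIT mice (n = 4) carry the sequence of β5t in place of β5i on both alleles of the β5i gene and come from 1 knock-in line. The mice compared were on a C57BL/6 background. WT 5, β5t-KO 5 and BIT 3 were left out by the rule. Whether the replicates shared a litter or a day is not given, so p-values measure the spread between these mice.

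The TCRα locus holds its V genes upstream of a long array of J genes (TRAJ). A developing thymocyte joins a V gene to a TRAJ gene, and it can repeat this on the same allele by joining a V gene further upstream to a TRAJ gene further downstream until a receptor is positively selected or the cell dies. First joins are therefore known to favour V genes near the array and TRAJ genes at its upstream end. The question put to these data was how the use of the TRAV16 to TRAV19 genes relates to the position of the joined TRAJ, and whether either differs between the proteasome genotypes.

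Each V gene ends in a recombination signal, which the RAG recombinase cuts, made of a heptamer, a spacer and a nonamer. The germline ends are shown because they mark where each gene lies and what it brings to the joint. Each line gives the end of the V coding sequence followed by the recombination signal, 5′ to 3′ on the plus strand of GRCm39, with the heptamer and the nonamer in capitals.
Trav16d-dv11, chr14:53285249-53285317: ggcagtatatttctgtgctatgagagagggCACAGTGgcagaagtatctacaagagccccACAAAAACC
Trav16n, chr14:53589049-53589117: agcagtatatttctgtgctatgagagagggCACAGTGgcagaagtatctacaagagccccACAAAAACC
Trav16, chr14:53981133-53981201: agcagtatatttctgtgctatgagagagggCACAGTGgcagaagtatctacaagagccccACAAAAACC
Trav17, chr14:54044543-54044611: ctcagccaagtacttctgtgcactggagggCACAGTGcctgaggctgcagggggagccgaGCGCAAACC
Trav18, chr14:54069255-54069323: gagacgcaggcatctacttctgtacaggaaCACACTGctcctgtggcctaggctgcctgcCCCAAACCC
Trav19, chr14:54083255-54083323: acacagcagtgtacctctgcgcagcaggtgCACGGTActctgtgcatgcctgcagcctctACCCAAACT

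The heptamer read CACAGTG in the TRAV16 copies and in Trav17, as in 101 of 130 TRAV genes of the plus strand (77.7%), read directly after the last coding base and on no other strand. It differed from CACAGTG at 1 base in Trav18 and at 2 bases in Trav19. The nonamer of the TRAV16 copies read ACAAAAACC, as in 4 of 130 genes (3.08%), and that of Trav17, Trav18 and Trav19 differed from it at 3 bases each. A match of letters does not measure how well a signal is cut.

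TRAV17, TRAV18 and TRAV19 lie near the TRAJ array, and TRAV16N does not. Trav17 (chr14:54044096-54044572), Trav18 (chr14:54068562-54069284) and Trav19 (chr14:54082691-54083284) are 2-exon V genes that end 348, 323 and 309 kb upstream of Traj61, the first TRAJ gene. Of all 136 annotated TRAV and TRDV genes they are numbers 13, 12 and 11 counted from the TRAJ array. Trav16n (chr14:53588485-53589078) lies in a repeated stretch of the locus, 803 kb upstream, and is number 58. Trav16 (chr14:53980561-53981162), the copy that no clone listed, lies 411 kb upstream. The V exons of Trav16n and Trav16, the second of 2 exons in each gene, differed at 4 of 301 bases (98.7% identity). Trav16n differed from the third copy, Trav16d-dv11, at 3 of 301 bases, and all 3 copies carried the same recombination signal. Within this exon a read from one copy can be told from another only by those few bases. The first exons were not compared, and whether clones of Trav16 were listed as TRAV16N was not tested. TRAV16N stood beside another V gene in 136 of its 7105 in-frame clones (1.91%), against 35.1% over all V genes. TRAV17, TRAV18 and TRAV19 always stood alone, and their V exons were 47.9% to 53.0% identical to each other.

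The libraries held 622 to 26272 clonotypes (median 7656) from 14772 to 602397 molecules tagged with unique identifiers. β5t-KO 2 had the fewest clonotypes and β5t-KO 4 had 1661, so values of β5t-KO mice rest on fewer members than those of BIT mice. TRAV11 or TRAV11D joined to TRAJ18, the chain of invariant NKT cells, made up 0% to 0.0346% of clonotypes per mouse. TRAV1 joined to TRAJ33, the chain of MAIT cells, made up 0% to 0.161%. A fixed chain counts as few clonotypes however many cells carry it. These shares therefore do not measure how many such cells were present.

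TRAV17 and TRAV19 were joined to TRAJ genes at the upstream end of the array in every mouse, and TRAV16N lay between them and the other V genes. The position of a TRAJ gene was taken as its distance downstream of the start of Traj61, in an array of 63.8 kb, and averaged over the clonotypes of a V gene. For TRAV19 the mean position in a mouse was 10.8 kb at the lowest, 13.96 kb at the median and 15.2 kb at the highest, a mean of 13.7 ± 1.38 kb (SD, n = 17). For TRAV17 it was 15.9, 17.9 and 20.1 kb, a mean of 18 ± 1.38 kb. For TRAV16N it was 25.4, 30.4 and 32.2 kb, a mean of 30.04 ± 1.73 kb. The other V genes of the same mice, taken against TRAV17, averaged 33.5 to 36.9 kb. No mouse overlapped between TRAV16N and the pair of TRAV17 and TRAV19, and all 3 genes lay upstream of the other V genes in 17 of 17 mice.

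Each V gene was tested by its mean position minus that of all other V genes of the same mouse, with limma across the 36 V genes that had at least 5 clonotypes in each mouse. The test called 33 of 36 V genes (91.7%) in one direction or the other, so a call says little by itself and the size and order of the differences carry the description. TRAV19 differed by -21.14 ± 0.336 kb (SE, limma adjusted p = 2.71e-29) and had the most upstream TRAJ genes of all 36. TRAV17 was the third in that order at -16.58 ± 0.293 kb (SE, limma adjusted p = 2.38e-28). TRAV14-3, at -17.84 kb, stood between them. TRAV16N differed by -4.83 ± 0.227 kb (SE, limma adjusted p = 4.03e-18). Over clones that list 1 V gene, which leaves out many clones of the other V genes, the difference of TRAV16N was -2.75 kb. The median of the 36 differences was 0.13 kb.

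Across the 36 V genes, those further from the array used TRAJ genes further downstream. Pearson's r between the distance of a V gene from Traj61 and its mean TRAJ position relative to the other V genes was 0.81 and Spearman's rho was 0.89. Genes in one locus share libraries and neighbours, so these are descriptions across genes and not tests. Without TRAV16N, TRAV17 and TRAV19 they were 0.80 and 0.89 over 33 genes. TRAV16N was the member that stood off this relation.

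**Figure D1:**
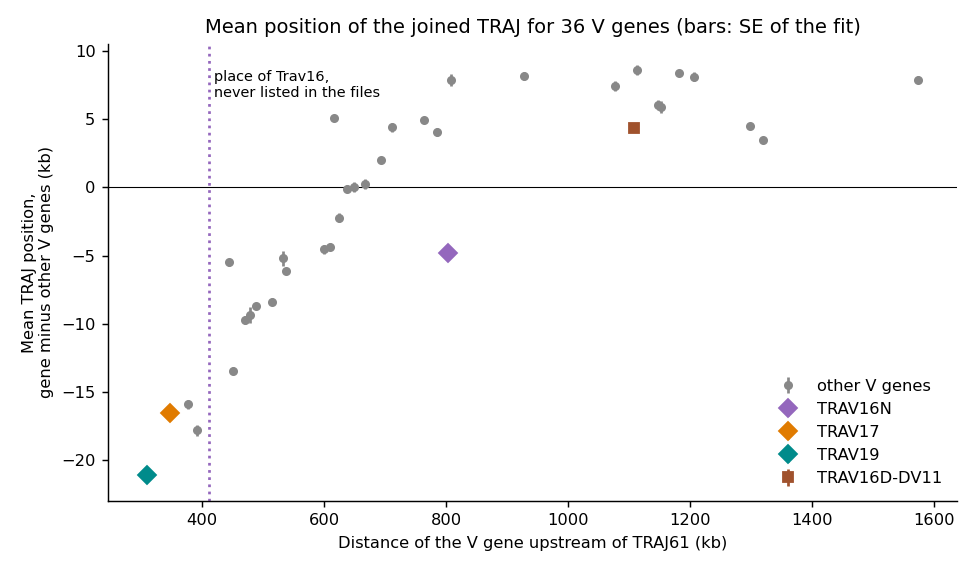
Mean TRAJ position of each of 36 V genes relative to the other V genes (y axis, kb, mean of the 4 groups with SE) against the distance of the V gene upstream of TRAJ61 (x axis, kb). TRAV17 and TRAV19 sit at the left end with values of -16.58 and -21.14 kb, while TRAV16N, placed 803 kb away, lies at -4.83 kb, below the genes around it.

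The 7 tested V genes within 150 kb of Trav16n had differences of 0.22 to 8.18 kb, all on the downstream side. The smallest, that of TRAV9-1 at 0.22 ± 0.367 kb, was not called (SE, limma adjusted p = 0.591). The 12 tested V genes within 150 kb of Trav16, TRAV17 and TRAV19 among them, had differences of -21.14 to -5.20 kb, all upstream. TRAV16N at -4.83 kb fell between both sets. Its own mean of 30.04 kb lay upstream of the 42.4 kb of TRAV8N-2, the tested gene nearest to Trav16n, by a difference of -12.4 ± 3.36 kb (SD, n = 17), lower in 17 of 17 mice. It lay 13.1 ± 2.13 kb downstream of the 16.99 kb of TRAV14-3, the tested gene nearest to Trav16, higher in 17 of 17 mice. Against the 39.2 kb of TRAV16D-DV11, the near-identical copy, the difference was -9.11 ± 1.25 kb, again lower in 17 of 17 mice. Each of these 3 differences had an exact sign-flip permutation p of 1.53e-05 (two-sided, adjusted p 1.53e-05 over the 3), the smallest that 17 pairs can give. The 3 comparisons were chosen after values were seen, so these p-values describe the differences and are no separate support.

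The same order appeared when the TRAJ array was divided by gene number into an upstream window (TRAJ61 to TRAJ41), a middle window (TRAJ40 to TRAJ21) and a downstream window (TRAJ20 to TRAJ1), which held 13, 17 and 13 of the 43 TRAJ genes found. The upstream window took 81.5 ± 5.22% of TRAV19 clonotypes (SD, n = 17) and 66.6 ± 4.60% of TRAV17 clonotypes. It took 35.0 ± 5.85% of TRAV16N clonotypes and 20.9 ± 1.92% of the clonotypes of all V genes outside the 4. The downstream window was nearly unused by TRAV19 and TRAV17, with 1.15 ± 1.16% and 2.13 ± 1.84% of their clonotypes, against 28.4 ± 2.77% in the V genes outside the 4. TRAV16N placed 17.8 ± 3.51% of its clonotypes there. TRAV16D-DV11 placed 35.4 ± 4.64% there and 12.7 ± 3.21% in the upstream window.

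**Figure D2:**
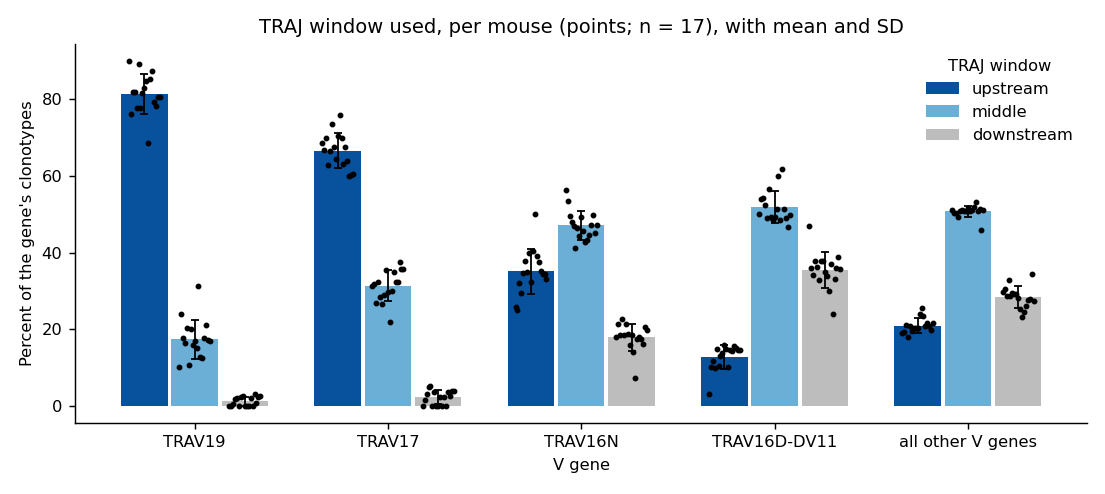
Percent of each V gene's clonotypes (y axis) in the upstream, middle and downstream TRAJ windows for TRAV19, TRAV17, TRAV16N, TRAV16D-DV11 and all other V genes, with a point per mouse (n = 17) and bars for the mean and SD. The upstream share falls from 81.5% in TRAV19 to 66.6% in TRAV17, 35.0% in TRAV16N and 12.7% in TRAV16D-DV11.

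TRAV18 was rarely found and, where found, followed TRAV17 and TRAV19. Its 17 clonotypes came from 8 of 17 mice, 7 from 2 WT, 4 from 3 β5i-KO and 6 from 3 BIT mice, with at most 4 in a mouse. The 9 mice without TRAV18, all 4 β5t-KO mice among them, allow shares of up to 0.0114% in the deepest and up to 0.482% in the shallowest library, a limit from counting error only. The upstream window held 14 of the 17 clonotypes, the middle window 3 and the downstream window 0. Their mean TRAJ position was 13.4 kb. TRAV18 did not pass the filter on low counts and entered no test.

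The share of a TRAJ gene's clonotypes that carried 1 of the 4 genes fell along the array. Over all TRAJ genes the 4 genes made up 5.96 ± 0.583% of clonotypes (SD, n = 17). The share was highest for TRAJ53, TRAJ57 and TRAJ56, which lie 7.64, 3.50 and 4.26 kb into the array. It averaged 25.3 ± 5.17% for TRAJ53, 24.4 ± 3.05% for TRAJ57 and 23.5 ± 4.25% for TRAJ56 (SD, n = 16 mice with at least 20 clonotypes of that TRAJ gene). The share was lowest for TRAJ5, TRAJ13 and TRAJ7, which lie 58.8, 50.7 and 56.5 kb into the array. It averaged 1.38 ± 1.33% for TRAJ5, 1.63 ± 0.909% for TRAJ13 and 1.72 ± 0.796% for TRAJ7 (SD, n = 16). In single mice the share was at least 15.2% in the highest set and at most 4.41% in the lowest. Both sets were picked by this share, so the gap between them follows from the choice and is no separate support.

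The 3 abundant genes contributed unequally along the array. TRAV19 made up 12.9 ± 4.31% of TRAJ57 clonotypes and 12.2 ± 2.73% of TRAJ56 clonotypes, and it was found in 0 of 2033 TRAJ5 clonotypes. TRAV17 was highest of the named TRAJ genes at TRAJ53, with 10.3 ± 6.50%, and at or below 0.113% on average at TRAJ5, TRAJ13 and TRAJ7. TRAV16N kept 1.27 ± 1.24% to 1.61 ± 0.730% of the clonotypes of those downstream TRAJ genes, most of what the 4 genes had there. The profiles over 43 TRAJ genes were alike for TRAV17 and TRAV19 (Spearman's rho 0.94) and less alike for TRAV16N with TRAV17 (0.66) and with TRAV19 (0.60), as a description across TRAJ genes.

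**Figure D3:**
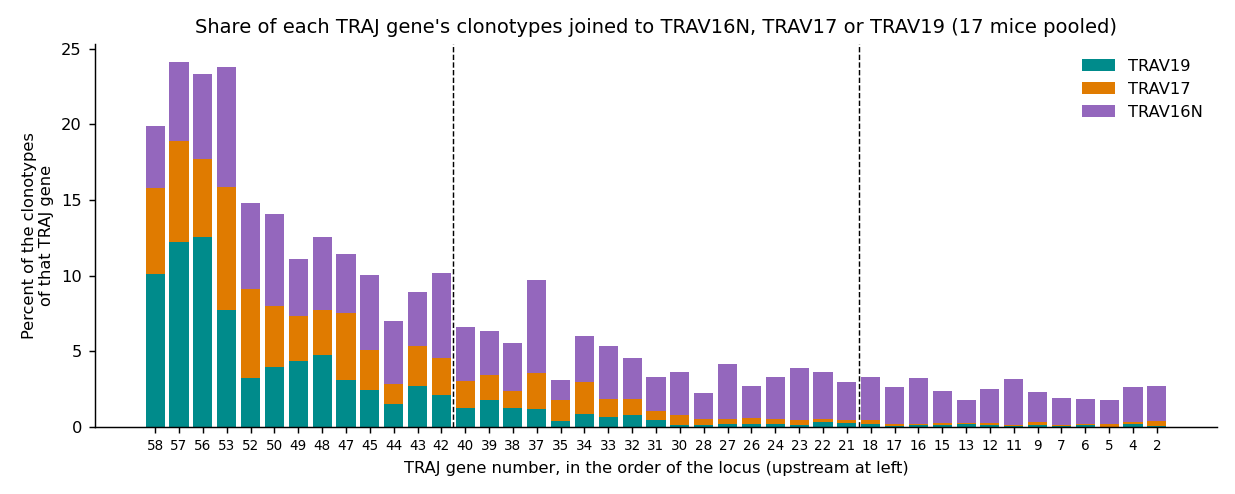
Percent of the clonotypes of each of 43 TRAJ genes (y axis, 17 mice pooled) that were joined to TRAV19, TRAV17 or TRAV16N (stacked bars), with TRAJ genes in locus order and dashed lines between the 3 windows. The genes together stand at 23.5% to 24.2% at TRAJ53, TRAJ56 and TRAJ57 and at 1.77% to 1.91% at TRAJ5, TRAJ7 and TRAJ13, where TRAV16N is most of it; these totals of the 4 genes include TRAV18, which is not drawn.

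V genes with neighbouring names did not all behave alike. The list called J-proximal neighbours was drawn up by name and not by distance (TRAV15 genes, TRAV16D-DV11, TRAV20, TRAV21-DV12, TRAV22 and TRAV23). Of these, 9 were found and 7 passed the usage filter. TRAV21-DV12 lies 278 kb upstream of Traj61 and the others of the 7 lie 505 to 1291 kb upstream. The mean TRAJ positions of the 7 ranged from 13.7 to 44.1 kb with a median of 37.4 kb. The neighbour closest to the array among the 7, TRAV21-DV12, had 82.0% of its 820 clonotypes in the upstream window at a mean of 13.7 kb. TRAV15D-2-DV6D-2, in a repeat 1198 kb away, had 5.26% of its 741 clonotypes there at a mean of 44.1 kb. Of the list of J-distal genes (TRAV1, TRAV2 and the TRAV3 genes), 7 were found and 6 passed, with a median of 41.4 kb and a range of 19.02 to 43.1 kb. Both lists hold copies from different repeats, and the TRAV3 gene at 19.02 kb, TRAV3-4, lies 377 kb from the array.

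The 3 V genes outside the 4 whose TRAJ profile was most like the combined profile of the 4 were TRAV13-4-DV7 (Spearman's rho 0.90), TRAV21-DV12 (0.90) and TRAV3-4 (0.89), over 43 TRAJ genes and 17 mice. They lie 397, 278 and 377 kb upstream of Traj61, the stretch that also holds Trav17, Trav18 and Trav19.

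Clones that could not make a protein were read separately, since they were not in the rule. TRAV16N had few of them. They made up 2.71 ± 0.935% of TRAV16N clones per mouse (SD, n = 17), against 9.69 ± 1.06% for the V genes outside the 4, and the share was lower in 17 of 17 mice. Over all mice TRAV16N had the second lowest share (2.79%) of the 93 V genes that passed the usage filter, whose median was 10.8%. TRAV17 had 6.48 ± 3.85%, lower than the other V genes in 15 of 17 mice. TRAV19 had 12.4 ± 5.24%, higher in 12 of 17 mice, so its values overlapped theirs. TRAV18 had 10 such clones among 28. No test was run on these shares.

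The non-productive clones of TRAV19, TRAV17 and TRAV16N used TRAJ genes in the same order as the in-frame ones, and the few of TRAV18 did not. Their mean TRAJ position was 14.5 kb for 406 TRAV19 clones, 18.7 kb for 199 TRAV17 clones, 33.2 kb for 204 TRAV16N clones and 36 kb for 22287 clones of the V genes outside the 4. The in-frame clones of these genes averaged 13.9, 18.4, 30.5 and 36 kb. The 10 non-productive TRAV18 clones averaged 19.7 kb and the in-frame ones 13.6 kb. Such chains cannot form a receptor. The values are pooled over mice and were not tested.

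The CDR3 was longer with TRAV16N, TRAV17 and TRAV19 than with the other V genes. From the conserved cysteine onward the germline gene adds 17 bases in Trav16n, 14 in Trav17 and 13 in Trav19. The mean CDR3 was 44.9 ± 0.251 nucleotides (SD, n = 17) with TRAV16N, 42.6 ± 0.756 with TRAV17 and 41.4 ± 0.762 with TRAV19. Against the other V genes of the same mice the limma test called 30 of 36 V genes (83.3%). TRAV16N was longer by 4.15 ± 0.0637 nucleotides (SE, limma adjusted p = 2.54e-28), the longest of the 36. TRAV17 was longer by 1.56 ± 0.0981 nucleotides (SE, limma adjusted p = 4.50e-14). TRAV19 was longer by 0.38 ± 0.100 nucleotides (SE, limma adjusted p = 0.00122). The first 2 were longer in 17 of 17 mice and TRAV19 in 15 of 17. The near-identical copy TRAV16D-DV11 was longer than the other V genes too, by a mean of 3.07 ± 0.426 nucleotides (SD, n = 17) and at least 1.95 in a mouse. Joints with no base between the V and the J part made up 33.7 ± 5.58% of TRAV16N clones, 32.9 ± 5.88% of TRAV17 clones and 31.4 ± 5.12% of TRAV19 clones, against 26.2 ± 2.16% in the V genes outside the 4, with overlapping ranges and no test.

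The in-frame CDR3 nucleotide sequence found in the most mice is shown for each tested gene, because it ties the germline ends above to a TRAJ gene. Capitals mark the leading bases that match the germline V gene.
TRAV16N with TRAJ30: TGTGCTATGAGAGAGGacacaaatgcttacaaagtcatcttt
TRAV17 with TRAJ45: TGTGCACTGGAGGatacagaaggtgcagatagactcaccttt
TRAV19 with TRAJ56: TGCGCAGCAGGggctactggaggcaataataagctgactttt

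Each of the 3 was 42 nucleotides long, and in each the germline V and J genes accounted for all bases. The TRAV19 sequence was found in 15 of 17 mice, all but β5i-KO 2 and β5t-KO 3, at a mean of 0.0293% of molecules. The TRAV16N sequence was found in 11 mice (0.0202% of molecules), 1 of 3 sequences of that gene found in as many. The TRAV17 sequence was also found in 11 mice (0.00887% of molecules) and in none of the 4 β5t-KO mice. Those mice had 133, 10, 138 and 34 TRAV17 clonotypes. WT 1 (48) and BIT 2 (115) lacked it too, while WT 2 (66) and β5i-KO 5 (54) were among the mice that held it. Its absence was not tested. Of all CDR3 nucleotide sequences of a gene, 19.2% of 5117 with TRAV16N, 15.9% of 2436 with TRAV19 and 12.2% of 2279 with TRAV17 occurred in 2 or more mice, against 12.6% of 162713 in the V genes outside the 4.

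TRAV17 was used more in β5t-KO mice than in WT and in BIT mice, and no other member was called in a comparison of genotypes. Its share of clonotypes was 1.96%, 1.14%, 1.31% and 1.24% in the WT mice. It was 1.38%, 1.33%, 1.26%, 1.20% and 1.23% in the β5i-KO mice. It was 2.06%, 1.61%, 1.80% and 2.05% in the β5t-KO mice, from 133, 10, 138 and 34 clonotypes. It was 1.39%, 1.23%, 1.10% and 1.26% in the BIT mice. All β5t-KO mice lay above all β5i-KO and BIT mice, and WT 1, at 1.96%, lay among the β5t-KO mice while the other WT mice lay below them. How many of all V genes separate groups of this size in the same way was not counted. The β5t-KO mice were not tested against the β5i-KO mice.

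Usage was tested with edgeR's quasi-likelihood test over the 93 V genes with at least 5 clonotypes in at least 4 libraries. Between β5t-KO and WT mice 5 of 93 V genes (5.38%) were called, TRAV17 as the 1 of the 3 tested members among them, at a log2 difference of 0.53 ± 0.15 (SE, edgeR adjusted p = 0.0314), against a median of 0.14 over all V genes. The group means were 1.88 ± 0.217% and 1.41 ± 0.369% of clonotypes (SD, n = 4 each). Between BIT and β5t-KO mice 7 of 93 (7.53%) were called, and TRAV17 fell by 0.62 ± 0.14 on the log2 scale (SE, edgeR adjusted p = 0.00360), where the BIT mice averaged 1.24 ± 0.115% (SD, n = 4). The comparisons share the β5t-KO mice and are not independent of each other. The call against WT was lost in 7 of 11 alternatives, on clones that list 1 V gene (edgeR adjusted p = 0.115), with TMM normalisation (0.0918), DESeq2 (0.0984), at least 2 molecules per clone (0.0633) or the replicate number as a block (0.0828), and counted in reads (0.169) or molecules (0.144). It was also lost without WT 2, WT 3, WT 4, β5t-KO 1, β5t-KO 3 or β5t-KO 4, with edgeR adjusted p from 0.0511 to 0.183. The call of BIT against β5t-KO mice was lost in 1 of 11 alternatives, counted in molecules (edgeR adjusted p = 0.140), and without β5t-KO 1 (0.0789).

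Neither TRAV17 nor the other members were called in the remaining comparisons. Between β5i-KO and WT mice 1 of 93 V genes (1.08%) was called, and between BIT and WT mice 2 of 93 (2.15%). Between BIT and β5i-KO mice 0 of 93 (0%) were called by edgeR, with 3 at an unadjusted p under 0.05. The log2 differences of TRAV17 in these comparisons were -0.05, -0.10 and -0.05.

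**Figure D4:**
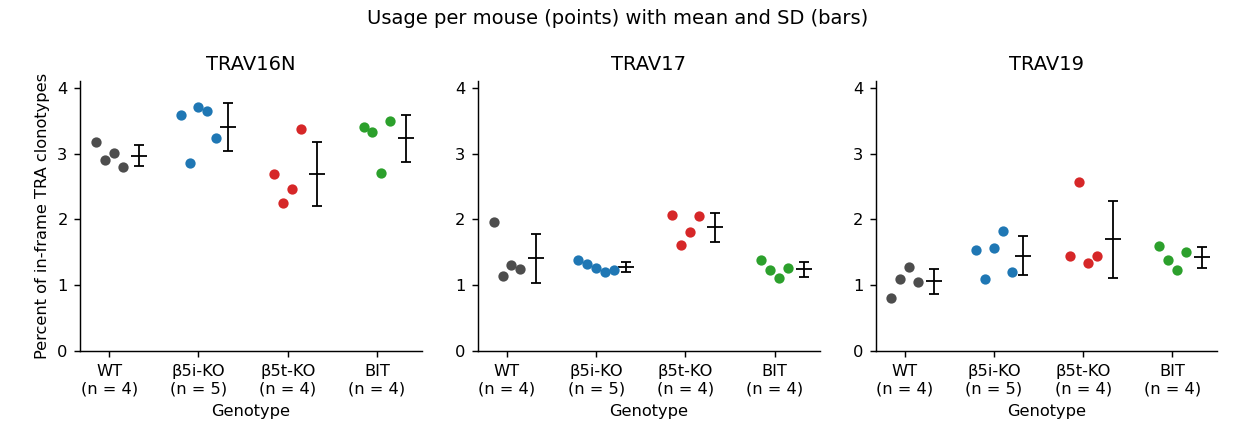
Percent of in-frame clonotypes that used TRAV16N, TRAV17 or TRAV19 (y axis) in each mouse (points) of the 4 genotypes, with mean and SD. TRAV17 stands at 1.61% to 2.06% in β5t-KO mice and at 1.10% to 1.39% in β5i-KO and BIT mice. The WT mice, at 1.14% to 1.96%, overlap both.

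TRAV19 had its lowest mean share in WT mice but was not called in any comparison. It made up 0.815%, 1.09%, 1.29% and 1.05% of clonotypes in WT mice. It made up 1.09% to 1.83% in β5i-KO mice, 1.35% to 2.57% in β5t-KO mice and 1.23% to 1.60% in BIT mice. The β5t-KO mice lay above all WT mice, while the β5i-KO and BIT mice overlapped the WT mice. Such separation was not counted over all V genes. Against WT mice the log2 difference was 0.42 ± 0.15 for β5i-KO mice (SE, edgeR adjusted p = 0.152), 0.42 ± 0.18 for β5t-KO mice (0.165) and 0.37 ± 0.15 for BIT mice (0.141).

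TRAV16N was the sixth most used of 107 V genes. Its mean share of clonotypes was 2.97 ± 0.164% (SD, n = 4) for WT mice, 2.69 ± 0.485% (n = 4) for β5t-KO mice, 3.23 ± 0.355% (n = 4) for BIT mice and 3.404 ± 0.359% (n = 5) for β5i-KO mice. The genotypes overlapped, and no log2 difference was called, from -0.13 ± 0.14 for β5t-KO against WT to 0.26 ± 0.13 for BIT against β5t-KO (SE, edgeR adjusted p = 0.596 and 0.219). The last one was called in 2 of 11 alternatives, counted in molecules (log2 0.57, edgeR adjusted p = 0.0232) or in reads (log2 0.53, edgeR adjusted p = 0.0238) in place of clonotypes. By molecules TRAV16N made up 1.64% to 2.96% in β5t-KO mice and 3.05% to 3.97% in BIT mice, groups that did not overlap. The near-identical copy TRAV16D-DV11 did not overlap either, with 0.798% to 1.03% in β5t-KO mice and 1.18% to 1.48% in BIT mice. How many other V genes separate these groups by molecules was not counted.

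The lists of neighbouring and distal V genes, drawn up by name and not by distance, had no member called in any of the 5 comparisons. The median log2 difference of the 7 J-proximal neighbours tested was 0.20 for β5t-KO against WT and 0.60 for BIT against WT, beside medians of 0.14 and 0.13 over all 93 V genes. That of the 6 J-distal genes tested was 0.07 and 0.07.

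The rise of TRAV17 in β5t-KO mice was next divided by TRAJ window, with edgeR over 240 pairs of V gene and window. Upstream TRAV17 clonotypes made up 1.34%, 0.761%, 0.914% and 0.782% of all clonotypes in the WT mice and 1.57%, 1.13%, 1.14% and 1.38% in the β5t-KO mice. They made up 0.887%, 0.737%, 0.666% and 0.760% in the BIT mice. Again only WT 1 overlapped the β5t-KO mice, and the BIT mice lay below the β5t-KO mice, a separation not counted over all pairs. Between β5t-KO and WT mice 9 of 240 pairs (3.75%) were called, and upstream TRAV17 was the 1 called among the 9 pairs of TRAV16N, TRAV17 and TRAV19, at a log2 difference of 0.59 ± 0.18 (SE, edgeR adjusted p = 0.0433). Between BIT and β5t-KO mice 7 of 240 pairs (2.92%) were called, and upstream TRAV17 fell by 0.80 ± 0.17 on the log2 scale (SE, edgeR adjusted p = 0.00284), again the only 1 of the 9. Without β5t-KO 1 the edgeR adjusted p values were 0.393 and 0.100. The call against WT was lost in 4 of 6 alternatives, on clones that list 1 V gene (edgeR adjusted p = 0.151), with DESeq2 (0.123), with TMM normalisation (0.114) and with the replicate number as a block (log2 0.49, edgeR adjusted p = 0.183). It was lost in 9 of the 17 fits that left out 1 mouse, those without WT 2, WT 3, WT 4, β5t-KO 1, β5t-KO 4, β5i-KO 1, BIT 1, BIT 2 or BIT 5.

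**Figure D5:**
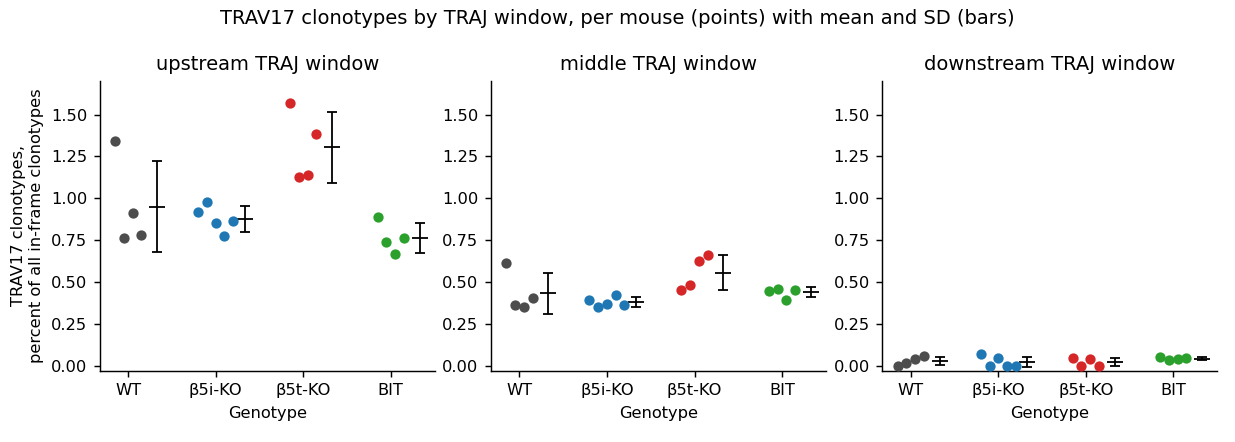
TRAV17 clonotypes joined in the upstream, middle and downstream TRAJ windows as a percent of all in-frame clonotypes (y axis) in each mouse (points) of the 4 genotypes, with mean and SD. In the upstream window the β5t-KO mice stand at 1.13% to 1.57% and the BIT mice at 0.666% to 0.887%. The WT mice, at 0.761% to 1.34%, overlap both.

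Middle-window TRAV17 clonotypes made up 0.555 ± 0.105% of all clonotypes in β5t-KO and 0.432 ± 0.121% in WT mice (SD, n = 4 each), a log2 difference of 0.49 ± 0.21 that was not called (SE, edgeR adjusted p = 0.253). Whether the difference of the upstream window exceeded that of the middle window was not tested. Within TRAV17 the upstream window took 67.1 ± 3.14% of clonotypes in WT mice, 69.2 ± 5.37% in β5t-KO mice and 61.2 ± 1.90% in BIT mice, with overlapping values in WT and β5t-KO mice. The 9 pairs included TRAV16N, whose downstream clonotypes had a log2 difference of -0.51 ± 0.22 in β5t-KO against WT mice, and upstream TRAV19, with 0.45 ± 0.18, neither of which was called (SE, edgeR adjusted p = 0.240 and 0.185).

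The position of the joined TRAJ, relative to the other V genes of the mouse, was not called as different from WT for any V gene. The limma test called 0 of 36 V genes (0%) in β5i-KO, 0 of 36 (0%) in β5t-KO and 0 of 36 (0%) in BIT mice, with 1, 3 and 3 at an unadjusted p under 0.05. For TRAV17 the difference from WT was 0.71 ± 0.77 kb (β5i-KO), 1.68 ± 0.98 kb (β5t-KO) and 1.77 ± 0.74 kb (BIT), with limma adjusted p = 0.725, 0.440 and 0.300 (SE). TRAV19 differed by 1.52 ± 0.84, 1.29 ± 1.18 and 1.36 ± 0.82 kb (SE, limma adjusted p = 0.574, 0.540 and 0.461). TRAV16N differed by -0.79 ± 0.52, -0.96 ± 0.81 and -0.31 ± 0.51 kb (SE, limma adjusted p = 0.620, 0.516 and 0.811). All of these differences were smaller than the -21.14 kb and -16.58 kb of TRAV19 and TRAV17 against the other V genes. In absolute terms TRAV16N averaged 31.7 ± 0.719 kb in WT and 27.8 ± 1.84 kb in β5t-KO mice (SD, n = 4 each), without overlap. The other V genes of the same mice did not overlap either, at 33.4 to 34.6 kb in β5t-KO and 34.99 to 36.7 kb in WT mice. Nor did TRAV16D-DV11, at 36.9 to 38.4 kb in β5t-KO and 39.7 to 42.1 kb in WT mice. For TRAV16N the β5i-KO mice (28.3 to 31.1 kb) and the BIT mice (30.1 to 31.03 kb) overlapped the WT mice (30.7 to 32.2 kb). The upstream window took 25% to 32.0% of TRAV16N clonotypes in the WT mice. It took more in every mouse of the other genotypes, with 32.4% to 39.8% in β5i-KO mice, 33.2% to 35.2% in BIT mice and 37.5% to 50% in β5t-KO mice. For the V genes outside the 4 it took 17.97% to 21.04% in WT mice and 19.4% to 20.7%, 19.9% to 21.5% and 20.7% to 25.6% in the same order, overlapping WT in each. The near-identical copy TRAV16D-DV11 had 3.13% to 11.5% in WT mice and 14.5% to 15.5% in BIT mice, again without overlap. It had 10.4% to 15.9% in β5i-KO mice and 10% to 14.7% in β5t-KO mice, which overlapped WT. No test was run on these shares or on the absolute positions, and how many single V genes separate from WT in this way was not counted. Taken over all clonotypes, upstream TRAV16N had a log2 difference of 0.33 ± 0.18 in β5t-KO against WT mice. It was not called (SE, edgeR adjusted p = 0.353).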

How the data were processed

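RNA of sorted CD8 T cells was amplified with a SMARTer kit (Takara) for both mouse TCR chains, and clones were assembled with MiXCR, whose version and settings are not given in the sources used here. The submitters' processing notes name mm10. The deposited tables give whole-number read counts and unique molecule counts per clone, not normalised by the authors. They hold no coordinates, so positions and germline sequences are those of GENCODE vM39 on GRCm39, to which all 108 V and 43 J names matched. Where a clone listed more than 1 V gene, the first was taken.

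Clonotype numbers per V gene, and per V gene and TRAJ window, went into edgeR 4.0.16 (its quasi-likelihood test, scaled by library size) where 4 or more libraries had 5 or more clonotypes, and TRAJ position and CDR3 length with limma 3.58.1, weighted by clonotypes, over V genes with at least 5 clonotypes in every mouse, in R 4.3.3. All 4 groups shared 1 fit, with Benjamini-Hochberg adjustment over all genes or pairs and a threshold of 0.05. Both were tested on simulated data. The SE printed with edgeR values was the log2 difference divided by the square root of the F statistic. The edgeR test gives no SE of its own, and this one does not always match the p-value. DESeq2 1.42.0 was an alternative. Other values came from Python 3.11.15, NumPy 2.4.6, pandas 2.3.3, SciPy 1.17.1, pysam 0.24.0, Biopython 1.88 and Matplotlib 3.10.9.

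The members and lists were chosen with earlier results of these data known. Named were all members, neighbours (at most 4), distal genes, the 3 V genes with the most similar TRAJ profile and the 3 TRAJ genes with the highest and lowest share of the 4 genes. The rule for TRAJ genes asked for 50 clonotypes in every mouse, which 0 TRAJ genes met, so at least 1000 over all mice was asked for, which all 43 met. TRAV8N-2, TRAV14-3 and TRAV15D-2-DV6D-2 and the tests of TRAV16N against its neighbours were chosen after values were seen. Leaving out each mouse, the replicate block and other units, filters and normalisations were tried as alternatives. Intervals and floors (3 counts) cover counting error only. Of 28 pairs of libraries within groups, 0 were identical. Genotype labels could not be checked, since Psmb8 and Psmb11 are not read by TCR sequencing.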

Additional observations from a re-analysis of the deposited data

Results flagged for a closer look

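In 36 sets of values (TRAV16N, TRAV17 and TRAV19; usage, TRAJ position and CDR3 length; 4 genotypes) 1 mouse stood far from the others of its group, where chance would mark about 1 in 20 sets. TRAV19 made up 2.57% of clonotypes in β5t-KO 2, against 1.35% to 1.44% in the other β5t-KO mice. This library was the shallowest, and the value rests on 16 of 622 clonotypes (95% Wilson interval 1.59% to 4.14%, counting error only). Without it the log2 difference of TRAV19 between β5t-KO and WT mice was 0.34 (edgeR adjusted p = 0.267) in place of 0.42 (edgeR adjusted p = 0.165).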

How the results depend on the processing

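The TRAJ position and CDR3 length of TRAV16N, TRAV17 and TRAV19 relative to the other V genes kept their direction and call under all alternatives run, and so did the 3 paired differences of TRAV16N. At least 10 clonotypes in every mouse left 21 V genes called by position, because fewer genes were tested. Genotype calls were less stable. TRAV17 in β5t-KO against WT mice had log2 differences of 0.38 (reads) to 0.48 (at least 2 molecules) where its call was lost, and its call against BIT mice was lost by molecules (-0.46, edgeR adjusted p = 0.140). Leaving out 1 mouse at a time gave 0.47 to 0.63 (edgeR adjusted p 0.00186 to 0.183) and -0.69 to -0.56 (edgeR adjusted p 0.000953 to 0.0789), with the former call lost without WT 2, WT 3, WT 4, β5t-KO 1, β5t-KO 3 or β5t-KO 4. The call of upstream TRAV17 against WT was lost in 9 of these refits (log2 0.43 to 0.73 over all 17). TRAV16N in BIT against β5t-KO mice was called by reads (log2 0.53) and by molecules (0.57). TRAV19 in β5i-KO against WT mice was called without β5i-KO 2 (log2 0.49, edgeR adjusted p = 0.0401).

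Counts of V genes called moved by over 1.5 times as follows. For β5t-KO against WT (5), they were 3 with 1 V gene listed, 3 with at least 2 molecules, 8 with only the groups compared and 2 with the replicate block. For BIT against β5t-KO (7), they were 4 with DESeq2, 4 without a filter, 12 with only the groups compared and 12 by molecules. For BIT against WT (2), they were 0 with 1 V gene listed and by reads, 1 with DESeq2, TMM and molecules, 4 with at least 2 molecules, 5 with the replicate block and 8 with only the groups compared. For β5i-KO against WT (1), they were 0 with 1 V gene listed, DESeq2, TMM, at least 2 molecules, only the groups compared, reads and molecules. By window, 5 pairs were called with 1 V gene listed for β5t-KO against WT (9) and 4 with DESeq2 for BIT against β5t-KO (7). By position, 1 V gene was called for β5t-KO against WT (0) without weights and with the replicate block. Leaving out 1 mouse at a time gave 2 to 7, 2 to 9, 0 to 7 and 0 to 5 V genes for the 4 usage comparisons in this order, 2 to 12 and 0 to 8 pairs by window, and 0 to 1 V genes by position in β5i-KO against WT mice.

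Values near 0 changed sign. By molecules these were TRAV17 in BIT and β5i-KO against WT (log2 0.0088 and 0.086) and TRAV19 in BIT against β5i-KO and β5t-KO (0.035 and 0.17). By reads they were TRAV17 in β5i-KO against WT (0.010) and TRAV19 in BIT against β5i-KO (0.0044), and with DESeq2 TRAV16N in BIT against WT (-0.0097). For TRAV19 in BIT against β5t-KO they were 0.018 with 1 V gene listed, 0.019 with at least 2 molecules, 0.041 by nucleotide clonotypes and 0.010 with the replicate block. With equal windows they were downstream TRAV17 in BIT against β5t-KO (-0.13) and in β5t-KO against WT (0.25). Leaving out 1 mouse at a time, ranges that crossed 0 were, for TRAV17, -0.16 to 0.0075 (BIT against WT), -0.11 to 0.0099 (BIT against β5i-KO), -0.11 to 0.053 (β5i-KO against WT) and -0.46 to 0.29 (downstream, β5t-KO against WT). For TRAV19 they were -0.11 to 0.026 (BIT against β5i-KO), -0.14 to 0.034 (BIT against β5t-KO), -0.0058 to 0.43 (middle, BIT against β5t-KO), -0.062 to 0.37 (middle, β5t-KO against WT) and -3.37 to 1.30 (downstream, β5t-KO against WT), and for TRAV16N -0.036 to 0.14 (upstream, BIT against β5t-KO). None of these was called. The cause was not tested.

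The replicate numbers give no shared litter or day, and same-numbered mice did not deviate together (22 pairs, correlation -0.33 to 0.22, median 0.00080). With the replicate block TRAV17 differed by 0.46 in β5t-KO against WT mice (edgeR adjusted p = 0.0828) and by -0.61 in BIT against β5t-KO mice (edgeR adjusted p = 0.0171), and upstream TRAV17 by 0.49 (edgeR adjusted p = 0.183) and -0.78 (edgeR adjusted p = 0.00904). Few clonotypes in β5t-KO 2 and β5t-KO 4 limit what can be said of single TRAJ genes and of TRAV18 in β5t-KO mice.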
